A study of Mus musculus with 2 samples.

Results

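The aminoacyl-tRNA synthetases of the mouse heart were examined in a pair of RNA-seq libraries that differ in the Mediator subunit gene Med1. A list of 36 genes was used, 20 for the enzymes of the cytosol and 16 for those of mitochondria, and members were matched by gene symbol. Of the 36 genes, 35 have a value of their own among the 22882 gene symbols listed, and Aars, the cytosolic alanine enzyme, is listed only together with Exosc6, a subunit of the RNA exosome.

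Aminoacyl-tRNA synthetases join each amino acid to its transfer RNA and so supply the ribosome with its building blocks. Mammalian cells translate in the cytosol and, separately, inside mitochondria, where the proteins made are subunits of the respiratory chain. Both sets of enzymes are encoded in the nucleus, usually by a separate gene for each compartment, and the mitochondrial enzymes (gene symbols ending in 2) are imported after synthesis. Gars and Kars are exceptions, since each gives rise to both a cytosolic and a mitochondrial enzyme. Cardiac muscle is rich in mitochondria, and inherited defects of several mitochondrial synthetases cause cardiomyopathy.

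The control was Med1fl/fl, in which exons of Med1 are flanked by loxP sites, and the knockout was csMed1-/-, in which an α-MyHC-Cre transgene removes those exons in cardiomyocytes. All mice were of the C57BL6/J background, of mixed gender and 23 days old, and no treatment was given. RNA from 5 whole hearts was pooled for each genotype, so each genotype is 1 library with no replicates, no difference between the genotypes could be tested, and the spread between mice is unknown. Cells other than cardiomyocytes keep Med1 in this model.

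Levels are given in FPKM, the fragments per kilobase of transcript scaled for the size of the library, a measure on which genes can be compared with each other. The exact library scaling used for these values is not known. A difference is the ratio of csMed1-/- to control FPKM or its log2, so that a negative value is a lower level in csMed1-/- heart. Genes were compared where neither library listed them at 0 and the higher value was 1 FPKM or more. This limit kept 10489 genes and retained all 35 synthetases, with Wars2 passing only through its control value. A difference past 2-fold was counted, and 31.5% of all genes passed it in 1 direction or the other. Med1 itself was at 3.38 FPKM in control and 0.412 FPKM in the csMed1-/- library, a ratio of 0.122.

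The libraries also differed in genes of particular cell types. All 6 cardiomyocyte markers that could be compared, of 10 listed, were lower in csMed1-/- heart, with a median log2 ratio of -2.19. Of the 6, 5 were past 2-fold, against 18.0% of all genes in that direction. Actc1 and Mb were listed at 0 in control, as was the joint entry of Myh6 and Myh7, although these genes are abundant in heart. Fibroblast markers had a median log2 ratio of 0.94, with 5 of 8 higher and 3 lower. By more than 2-fold 4 were higher, against 13.6% of all genes, and 1, Lum (-1.11), was lower, against 18.0%. Summed over the lists, cardiomyocyte markers were at 33888 FPKM in control and 19521 FPKM in the csMed1-/- library, where Actc1 alone gave 9189 FPKM, and fibroblast markers at 503 and 1193 FPKM. The medians were -0.58 over 8 endothelial markers, 0.12 over 8 macrophage markers and 0.66 over 7 smooth muscle and pericyte markers. Their sums were 523 and 458, 334 and 383, and 679 and 1118 FPKM. In the last sum Cnn1 alone gave 4.32 and 622 FPKM, while Acta2 was at 573 and 310 FPKM. Among these 7 markers 4 were higher and 3 lower. Of 8 erythroid genes listed only Alas2 could be compared alone, at 35.8 and 82.1 FPKM. The joint entry of Hba-a1 and Hba-a2 was at 8894 and 12084 FPKM, a ratio of 1.36. In whole-heart RNA fewer cells of a type and less RNA per cell cannot be told apart, and the part of cell makeup in the differences below was not tested.

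The 2 compartments differed. Mitochondrial synthetases were lower in csMed1-/- heart for 15 of 16 genes, with a median log2 ratio of -0.96, whereas 53.2% of all genes were lower and their median was -0.07. Of the 16, 8 were lower by more than 2-fold, a share to be read against 18.0% of all genes. At 1 FPKM or more in both libraries, which left out Wars2, 7 of 15 mitochondrial genes were lower by more than 2-fold, with a median of -0.87. Cytosolic synthetases were higher for 12 of 19 and lower for 7, with a median of 0.07, and only Dars was past 2-fold among the 19. The medians of the compartments were 1.03 apart on the log2 scale, or 2.04-fold. The quartiles of the mitochondrial values were -1.55 and -0.50, and those of the cytosolic values -0.17 and 0.46, so these ranges did not overlap, although single genes of the compartments overlapped.

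**Figure D1:**
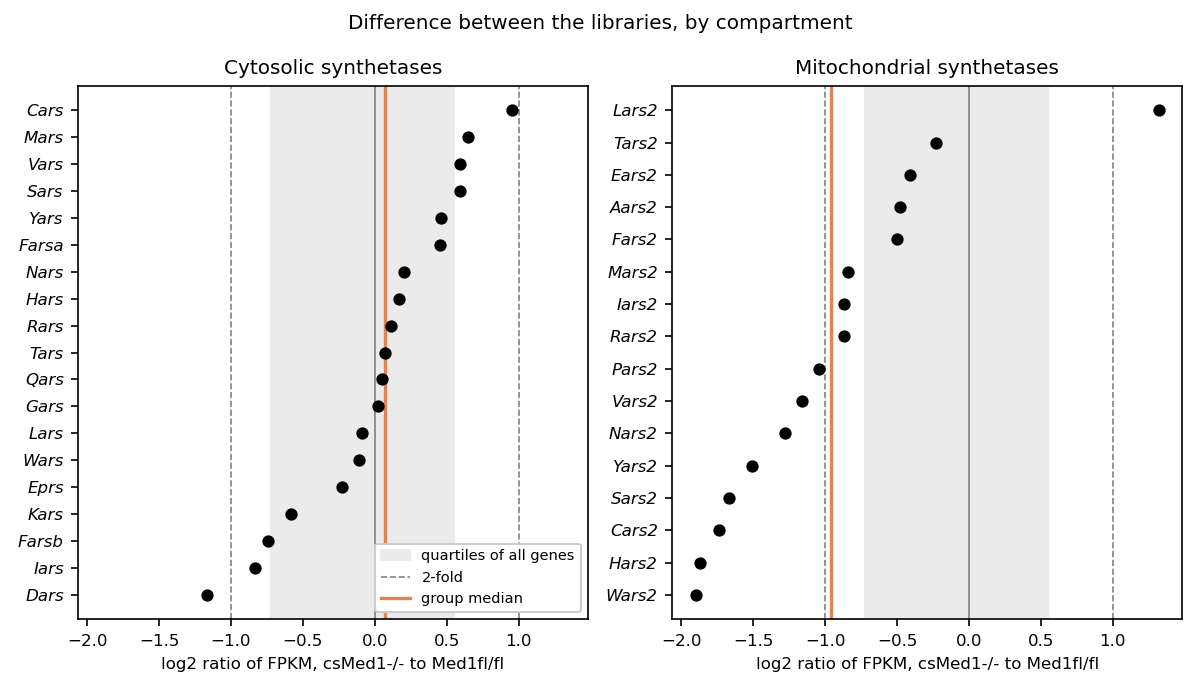
Log2 ratio of csMed1-/- to Med1fl/fl FPKM for 19 cytosolic and 16 mitochondrial synthetases, 1 point per gene from 1 pooled library per genotype, with the grey band marking the range between the quartiles of all 10489 genes, dashed lines 2-fold and the orange line each group's median. The cytosolic points lie around 0 with a median of 0.07, whereas 15 of 16 mitochondrial points lie left of 0 with a median of -0.96 and Lars2 stands at 1.32.

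Levels within each compartment spanned a wide range. Lars2, the mitochondrial leucine enzyme, was the most abundant synthetase in both libraries, at 282 FPKM in control and 705 FPKM in the csMed1-/- library. It was followed in both libraries by Kars, the lysine enzyme that serves both compartments, at 82.4 FPKM in control. Wars2, the mitochondrial tryptophan enzyme, was lowest in both, at 1.57 and 0.419 FPKM. The median level of the cytosolic group was 19.6 FPKM in control and 16.7 FPKM in the csMed1-/- library, and that of the mitochondrial group was 12.5 and 5.93 FPKM. Summed over the cytosolic genes the level was 463 and 481 FPKM. Because of Lars2, the mitochondrial sum went the other way from the median and was 538 and 848 FPKM. Without Lars2, a choice made after its value was seen, all of the remaining 15 genes were lower, their median log2 ratio was -1.04 and their sum was 256 FPKM in control and 143 FPKM in the csMed1-/- library.

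**Figure D2:**
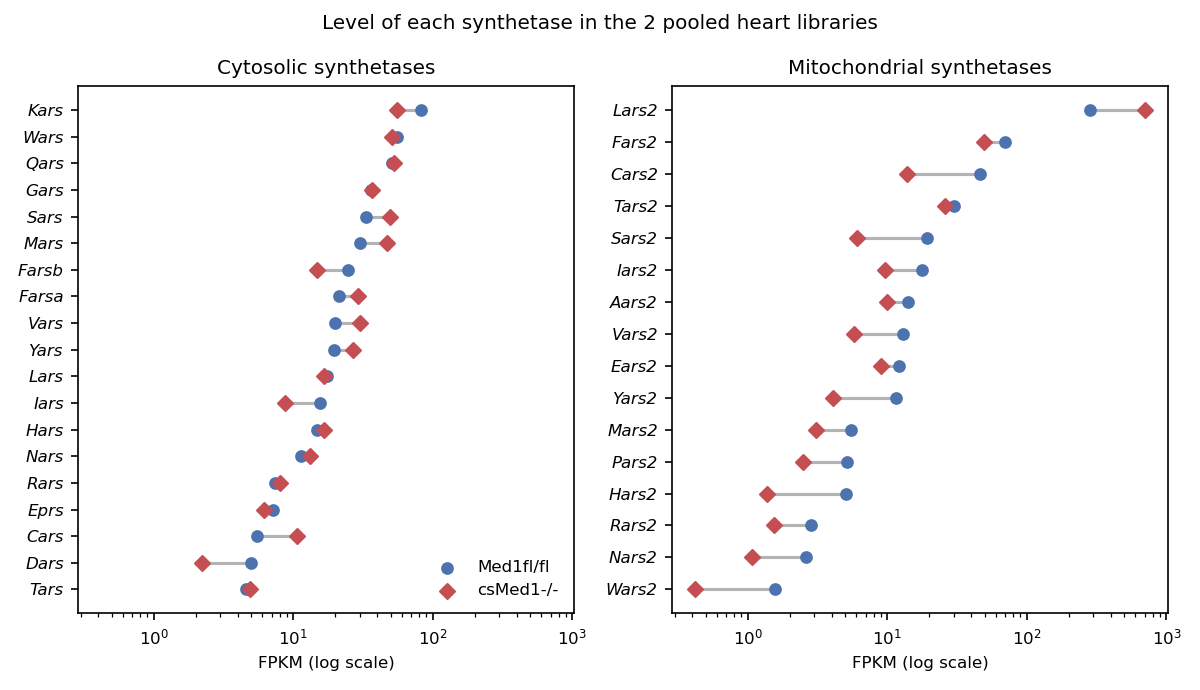
FPKM of each synthetase on a log axis in the Med1fl/fl and csMed1-/- libraries, 1 value per gene and library, arranged by compartment. Lars2 is the highest of all in both libraries (282 and 705 FPKM) and Wars2 the lowest (1.57 and 0.419 FPKM).

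Among the mitochondrial enzymes, 5 genes stood farthest below 0. Wars2 (chr3:99141068-99239186, plus strand, GENCODE M21 annotation of GRCm38) had a log2 ratio of -1.90, a 3.73-fold lower level, at values close to the limit of 1 FPKM. Hars2, the histidine enzyme, was at 5.05 FPKM in control and 1.38 FPKM in the csMed1-/- library, a log2 ratio of -1.87. Cars2 (chr8:11513977-11550783, minus strand), the cysteine enzyme, was at 46.3 and 13.9 FPKM, or 3.33-fold lower. Cars2 was thereby the 6th highest synthetase of the control library and the 16th of the csMed1-/- library. Sars2 (chr7:28741992-28753871, plus strand), the serine enzyme, was at 19.3 FPKM in control and 6.09 FPKM in the csMed1-/- library, a log2 ratio of -1.67. Yars2 (chr16:16302965-16309640, plus strand), the tyrosine enzyme, was at 11.6 and 4.08 FPKM, a log2 ratio of -1.51. The level of these 5 in csMed1-/- heart was thus between 0.268 and 0.351 of the control level.

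The other mitochondrial genes lower by more than 2-fold were Nars2 for asparagine (2.62 and 1.08 FPKM in control and csMed1-/- heart, log2 ratio -1.28), Vars2 for valine (12.9 and 5.77 FPKM, -1.16) and Pars2 for proline (5.18 and 2.51 FPKM, -1.04). A further 3 lay between 1.5-fold and 2-fold lower. They were Iars2 for isoleucine (17.7 and 9.71 FPKM, -0.87), Rars2 for arginine (2.82 and 1.54 FPKM, -0.87) and Mars2 for methionine (5.54 and 3.09 FPKM, -0.84). The smallest differences were those of Fars2 for phenylalanine (69.3 and 49 FPKM, -0.50), Aars2 for alanine (14 and 10 FPKM, -0.48), Ears2 for glutamate (12.1 and 9.07 FPKM, -0.41) and Tars2 for threonine (30.3 and 25.9 FPKM, -0.23). These 4 genes were at 9 FPKM or more in both libraries. The genes lower by more than 2-fold included both the least abundant, Wars2 and Nars2, and Cars2, the third most abundant mitochondrial synthetase of control.

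Lars2 (chr9:123366927-123462666, plus strand) was the only mitochondrial synthetase with a higher level in csMed1-/- heart, by 2.5-fold (log2 ratio 1.32), and 13.6% of all genes were higher by more than 2-fold. Its level was 4.07 times that of the next mitochondrial gene, Fars2, in control and 14.4 times in csMed1-/- heart. Of the 50-base windows of its annotated transcripts 0.196% also occurred in a transcript of another gene. That search took exact matches in annotated transcripts only, so it cannot show whether repeats or near matches added reads. Rn45s, a ribosomal RNA entry, was listed at 2056 FPKM in control and 0 in the csMed1-/- library. That 0 may not mean absence, since the abundant heart genes Actc1 and Mb were listed at 0 in control. Any part of ribosomal RNA reads in the Lars2 values was not tested. No other synthetase with a value of its own was higher past 2-fold.

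Among the cytosolic genes of the list Dars, the aspartate enzyme (chr1:128363707-128417368, minus strand), was the only gene past 2-fold. It was at 4.97 FPKM in control and 2.21 FPKM in the csMed1-/- library (log2 ratio -1.17). Cars for cysteine (chr7:143557230-143600090, minus strand) stood farthest in the other direction, at 5.54 and 10.7 FPKM (0.95). Iars for isoleucine (chr13:49682100-49734267, plus strand) was at 15.6 and 8.78 FPKM (-0.83), and Farsb (chr1:78417975-78488897, minus strand), the beta subunit of the phenylalanine enzyme, at 24.7 and 14.8 FPKM (-0.74). Farsa, the alpha subunit of the same enzyme, was at 21.2 and 29 FPKM (0.45), so the subunits of this enzyme differed in direction. Mars for methionine (chr10:127296221-127311786, minus strand) was at 30.1 and 47.3 FPKM (0.65), Vars for valine at 19.9 and 30 FPKM (0.59) and Sars for serine at 33 and 49.7 FPKM (0.59). Yars for tyrosine followed at 19.6 and 27 FPKM (0.46). All of these except Dars lay within 2-fold.

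Several abundant cytosolic genes were almost level between the libraries. Gars for glycine was at 36.4 FPKM in control and 37 FPKM in the csMed1-/- library, Qars for glutamine at 51.1 and 52.9 FPKM, and Wars for tryptophan at 55.2 and 51.3 FPKM. Kars was at 82.4 and 55.3 FPKM, a log2 ratio of -0.58. Gars and Kars, which also supply mitochondria, thus lay at 0.02 and -0.58, and the median of the cytosolic genes without them was 0.11. The 6 genes not yet named, Hars, Nars, Rars, Tars, Lars and Eprs, had log2 ratios from -0.23 (Eprs) to 0.20 (Nars). Eprs, for glutamate and proline, was at 7.18 FPKM in control and 6.13 FPKM in the csMed1-/- library, and Nars, for asparagine, at 11.4 and 13.1 FPKM. Rars for arginine was at 7.43 and 8.02 FPKM and Tars for threonine at 4.63 and 4.87 FPKM. Arginine, threonine and glutamate enzymes were thus among the less abundant of the cytosol in both libraries.

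Aars could not be read alone. Its entry, shared with Exosc6, was at 23.7 FPKM in control and 53 FPKM in the csMed1-/- library, a ratio of 2.23, and the shares of the 2 genes cannot be told apart. In the annotation 13.8% of the 50-base windows of Aars transcripts also occur in transcripts of other genes, most of them in Exosc6. For 10 other synthetases more than 2% of windows were shared with other genes. The share was largest for Iars2 (22.7%, mostly with Rab3gap2, which was at 3.33 FPKM in control and 4.51 FPKM in the csMed1-/- library), Fars2 (8.85%), Farsb (7.27%), Iars (7.15%, with a processed pseudogene) and Vars2 (6.45%, with an antisense gene). It was 5.15% for Cars2 and 3.37% for Hars2. The values of these genes carry that uncertainty, since the way the counting treated shared reads and strand is not given in the sources used here.

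The pairing of enzymes by amino acid gave a comparison within each amino acid. For 15 amino acids both compartments had a value, with Eprs, whose product charges glutamate and proline, used for both of those and the mean FPKM of Farsa and Farsb used for phenylalanine. The mitochondrial log2 ratio was below the cytosolic in 14 of the 15 pairs, and by more than 2-fold in 8. The median of the differences was -1.48 on the log2 scale. The pairs reuse the values above and are not further evidence of the difference between the compartments.

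The widest gap was that of cysteine, where Cars was higher and Cars2 lower, a difference of -2.69. The level of Cars2 was 8.37 times that of Cars in control and 1.3 times in csMed1-/- heart. Serine (-2.25), histidine (-2.04) and tyrosine (-1.97) followed. For serine the ratio of mitochondrial to cytosolic enzyme was 0.584 in control and 0.123 in csMed1-/- heart. Tryptophan (-1.79), valine (-1.75), methionine (-1.50) and asparagine (-1.48) completed the 8 pairs past 2-fold. The gap was small for threonine (-0.30), glutamate (-0.18) and isoleucine (-0.03), and in the isoleucine pair both enzymes were lower to the same degree. Leucine was the only pair with the opposite sign, at 1.41. There the level of Lars2 was 16 times that of Lars in control and 42.7 times in csMed1-/- heart, and Lars itself was at 17.6 and 16.5 FPKM. The mitochondrial enzyme was the more abundant of the pair in 6 of 15 amino acids in control and in 6 in csMed1-/- heart.

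**Figure D3:**
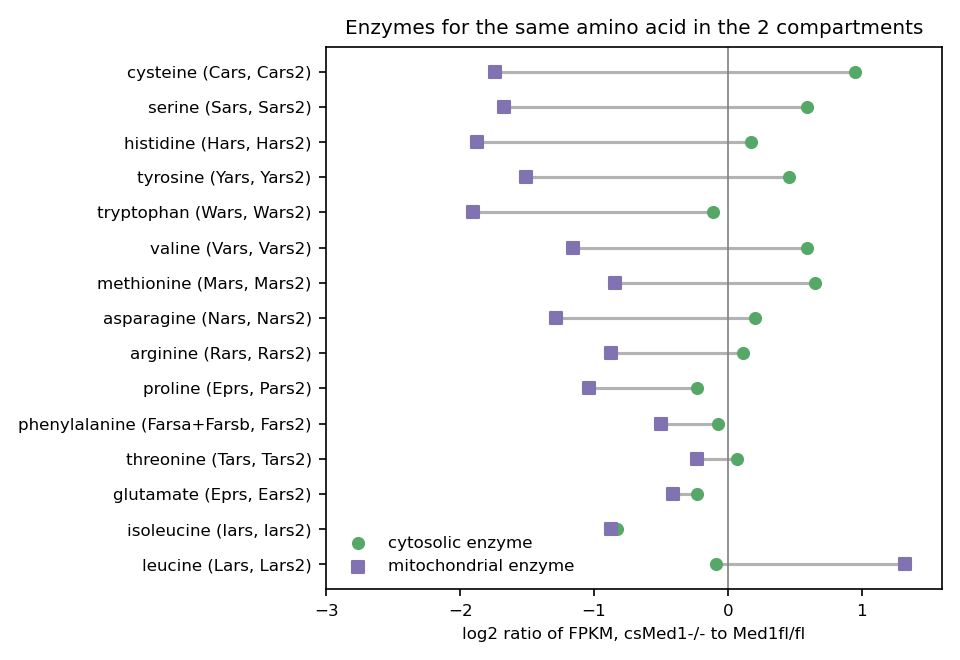
Log2 ratio of csMed1-/- to Med1fl/fl FPKM of the cytosolic (circle) and mitochondrial (square) enzyme for each of 15 amino acids, joined by a line and ordered by their difference. The square lies left of the circle in 14 of 15 pairs, from -2.69 for cysteine to -0.03 for isoleucine, and right of it for leucine at 1.41.

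The cytosolic synthetases were also divided by where they reside and by how they are classed. Some of them are held in the multi-synthetase complex, an assembly of synthetases around scaffold proteins. The 8 synthetases of the complex had a median log2 ratio of -0.16, with 5 lower and 3 higher. The 11 cytosolic synthetases outside it had a median of 0.20, with 2 lower and 9 higher. Among all genes 53.2% were lower. All 3 scaffold genes were lower within 2-fold. Aimp1 was at 22.2 FPKM in control and 12.1 FPKM in the csMed1-/- library (-0.88), Eef1e1 at 5.48 and 4.19 FPKM (-0.38) and Aimp2 at 55.7 and 50.2 FPKM (-0.15). The structural classes of the enzymes, which cross the compartments, were closer to each other, at -0.26 over 18 class I genes and -0.49 over 16 class II genes. These subgroups are small, and the differences between them are given as descriptions.

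Other genes of mitochondrial tRNA charging were described alongside. Mitochondrial glutamine tRNA is charged with glutamate and then converted by an amidotransferase of 3 subunits. Qrsl1, which encodes its A subunit, was at 21.6 FPKM in control and 5.28 FPKM in the csMed1-/- library (log2 ratio -2.03), Gatc at 12.9 and 6.97 FPKM (-0.89), and the B subunit gene, listed as Pet112l, at 25.9 and 42.8 FPKM (0.73). The subunit genes of this enzyme thus did not share a direction. Mtfmt, which formylates the initiator methionine tRNA, was at 2.51 and 1.68 FPKM (-0.58). Of these, only Qrsl1 was past 2-fold.

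Mitochondrial translation factors are the proteins that work with charged tRNAs on the mitochondrial ribosome. Of 11 listed, 9 were compared and 9 were lower, 6 by more than 2-fold, against 53.2% and 18.0% of all genes. Their median log2 ratio was -1.15, against -0.09 over 8 cytosolic elongation factors, of which 4 were lower, 4 higher and 0 past 2-fold. Mrrf, the ribosome recycling factor, was at 31.4 FPKM in control and 7.56 FPKM in the csMed1-/- library (-2.06), and Gfm2, its recycling partner, at 24.1 and 7.93 FPKM (-1.60). The release factor gene Mtrf1 was at 1.36 and 0.503 FPKM (-1.43) and the initiation factor gene Mtif2 at 1.69 and 0.669 FPKM (-1.34). Mtrf1 and Mtif2 passed the limit only through control, and among the 7 genes at 1 FPKM or more on both sides, 7 were lower, 4 past 2-fold, with a median of -1.06. The sum over all 11 factors listed was 596 FPKM in control and 291 FPKM in the csMed1-/- library.

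Editing factors and synthetase-like genes were lower for 5 of the 5 genes compared, out of 7 listed, and 3 were past 2-fold. The shares over all genes were 53.2% and 18.0%. The median of the 5 genes was -1.09. Tarsl2, a threonine synthetase-like gene, was at 3.8 FPKM in control and 0.271 FPKM in the csMed1-/- library (-3.81). Tarsl2 passed the limit only through control, and it was not counted among the cytosolic synthetases or in the threonine pair. Among the 4 genes at 1 FPKM or more on both sides, 4 were lower, 2 past 2-fold, with a median of -0.82. Aarsd1, which clears mischarged alanine tRNA, was at 45.2 and 13.6 FPKM (-1.73), and Pstk, which phosphorylates serine on selenocysteine tRNA, at 23 and 10.8 FPKM (-1.09). Genes of tRNA maturation were divided, with 11 of 21 lower, against 53.2% of all genes, 10 higher and a median of -0.13. Of these, 4 were lower past 2-fold and 0 higher, against 18.0% and 13.6% of all genes, so the lower share was near that of all genes. The 4 included Rpp40 (1.24 and 0.179 FPKM, -2.80) and Pop5 (44.3 and 19.3 FPKM, -1.20) of the ribonuclease P and MRP complexes. The tRNA methyltransferase Trmt5 (9.43 and 2.98 FPKM, -1.66) was another. Rpp40 was 1 of 3 genes that passed the limit only through control, and 1 gene passed only through csMed1-/-. Among the 17 genes at 1 FPKM or more on both sides, 8 were lower, 3 past 2-fold, and the median was 0.04, so its sign depended on the limit.

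**Figure D4:**
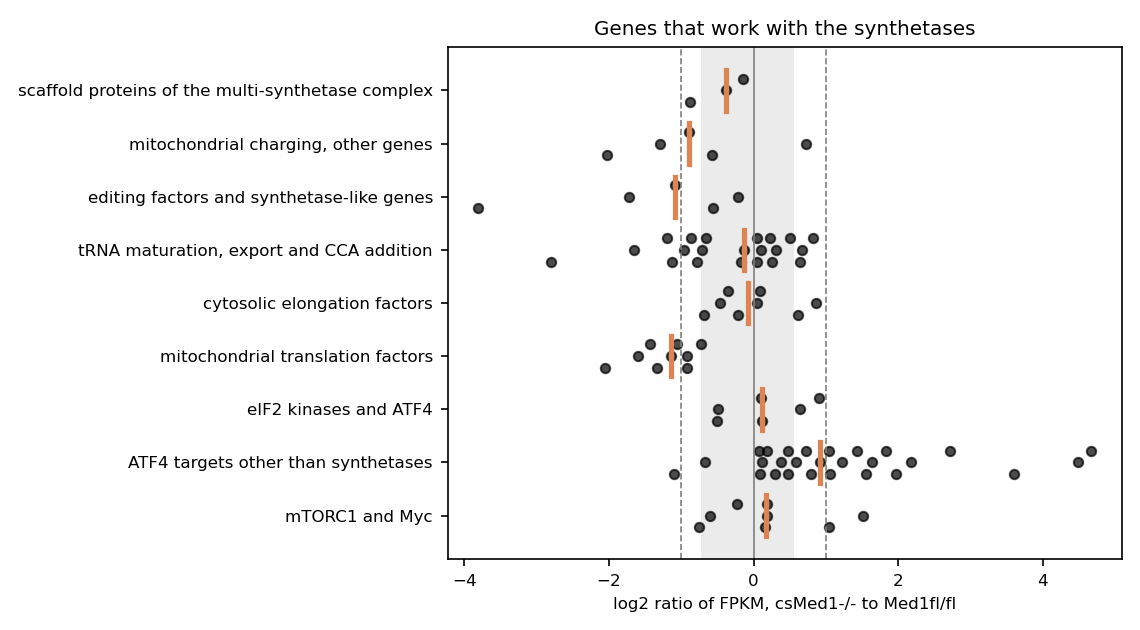
Log2 ratio of csMed1-/- to Med1fl/fl FPKM for genes of tRNA charging, tRNA maturation, translation and the ATF4 pathway, 1 point per gene that passed the expression limit, with the median of each list. The grey band is the range between the quartiles of all genes and dashed lines mark 2-fold. The mitochondrial translation factors (median -1.15) lie left of 0, the cytosolic elongation factors (-0.09) lie around 0, and the ATF4 targets other than synthetases (0.92) lie mostly right of it.

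Many cytosolic synthetase genes are known targets of ATF4, the transcription factor of the integrated stress response, which is made when the initiation factor eIF2 is phosphorylated. Of 32 other ATF4 targets listed, 27 were compared. Whereas 53.2% of all genes were lower in csMed1-/- heart, 25 of these targets were higher and 2 lower. Their median log2 ratio was 0.92, and 13 of the 27 were higher past 2-fold, against 13.6% of all genes. The 4 largest were Gdf15, a stress cytokine (1.67 FPKM in control and 42.6 FPKM in the csMed1-/- library, 4.67), the amino acid transporter gene Slc7a5 (3.92 and 88.3 FPKM, 4.49), the transcription factor gene Atf3 (2.15 and 26.2 FPKM, 3.60) and Ppp1r15a, which encodes a phosphatase subunit for eIF2 (13.7 and 90.1 FPKM, 2.71). Chac1 was lower past 2-fold, at 9.2 and 4.29 FPKM (-1.10). Of the 27 genes, 1 passed the limit only through csMed1-/-, and without it 12 were higher past 2-fold and the median was 0.86. Several genes of this list also respond to other stress pathways.

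The synthetases commonly listed as ATF4 targets that have a value of their own did not stand at that level. Of 13 listed, Aars was left out, and its joint entry with Exosc6 was past 2-fold at 1.16. Over the other 12 the median log2 ratio was 0.14, with 8 higher, 4 lower and 0 past 2-fold. Among all genes 53.2% were lower and 31.5% were past 2-fold in 1 direction or the other. Over the 7 cytosolic synthetases not so listed the median was 0.05. Atf4 mRNA was at 49.5 FPKM in control and 77.1 FPKM in the csMed1-/- library (0.64). The list of eIF2 kinases and ATF4 had 0 of 6 genes past 2-fold, against the same 31.5% of all genes. Of 8 genes of mTORC1 and Myc, other known regulators of translation genes, Myc (1.38 and 3.91 FPKM, 1.51) and Mtor (12 and 24.8 FPKM, 1.04) were higher past 2-fold, against 13.6% of all genes. The median of the 8 was 0.16.

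Promoter sequences were read for 27 of the 36 genes, 13 cytosolic and 14 mitochondrial, from RefSeq (GRCm38.p6) over 250 bases before to 50 bases after the transcription start. The core of the C/EBP-ATF response element, the site that ATF4 binds with a C/EBP partner, was searched as TTGCATCA on both strands. It was found in 4 of 13 cytosolic promoters (Aars, Iars, Tars and Yars), in 0 of 14 mitochondrial promoters and in 0.929% of 27025 promoters of the same length. With any base at the third position (TTNCATCA, which includes the first motif) it was found in 5 of 13, with Gars added, in 0 of 14 and in 4.06% of all. The following stretches are shown because they hold the motif that was found in cytosolic but in no mitochondrial promoters. Capitals mark TTNCATCA or its reverse complement, and each is written 5′ to 3′ on the strand of the gene. The stretches are chr8:111033690-111033777 (plus strand) for Aars, chr13:49682097-49682159 (plus) for Iars, chr15:11399629-11399713 (minus) for Tars, chr4:129189866-129189932 (plus) for Yars and chr6:55037931-55038018 (plus) for Gars.
Aars: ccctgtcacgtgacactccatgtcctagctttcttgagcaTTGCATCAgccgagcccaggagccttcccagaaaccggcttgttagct
Iars: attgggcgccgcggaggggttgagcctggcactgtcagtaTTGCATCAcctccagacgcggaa
Tars: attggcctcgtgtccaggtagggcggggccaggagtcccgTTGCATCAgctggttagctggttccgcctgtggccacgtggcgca
Yars: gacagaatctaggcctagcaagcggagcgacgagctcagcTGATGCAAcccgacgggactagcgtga
Gars: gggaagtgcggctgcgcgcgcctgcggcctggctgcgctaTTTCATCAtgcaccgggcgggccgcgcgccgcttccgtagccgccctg

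The genes with the motif did not share a direction in csMed1-/- heart. The log2 ratios were 0.46 for Yars, 0.07 for Tars, 0.02 for Gars and -0.83 for Iars, and the joint entry of Aars and Exosc6 was at 1.16. The motif begins 112 bases before the start in Aars, where a second TTNCATCA match, not shown, begins at base 10 after the start. It begins 30 bases before the start in Gars and 15 before in Tars, and lies just after the start in Iars and Yars. The shorter ATF4 motif TGATG, which is contained in the reverse complement of TTNCATCA, was found in 8 of 13 cytosolic and 4 of 14 mitochondrial promoters and in 39.7% of all.

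The other motifs were found in both compartments or in neither. The ETS site CCGGAAG, which GABPA can bind, was in 5 of 13 cytosolic and 4 of 14 mitochondrial promoters and in 9.12% of all. The E-box CACGTG was in 4 of 13, 1 of 14 and 7.24%. The motif AAGGTCA of the estrogen-related receptors, nuclear receptors that act on mitochondrial genes, was in 0 of 13, 0 of 14 and 4.66%. The NRF1 palindrome was in 0 of 13, 0 of 14 and 0.977%, and with any base at the sixth position it was in 3 of 13, 2 of 14 and 4.78%. A match is only a run of letters and does not show that a factor binds there. Below are the promoters of 3 mitochondrial synthetases among the 5 with the lowest ratios, shown to 30 bases after the start, with CCGGAAG or its reverse complement in capitals. They lie at chr16:16302715-16302994 (plus strand) for Yars2, chr8:11550742-11551021 (minus) for Cars2 and chr7:28741718-28741997 (plus) for Sars2.
Yars2: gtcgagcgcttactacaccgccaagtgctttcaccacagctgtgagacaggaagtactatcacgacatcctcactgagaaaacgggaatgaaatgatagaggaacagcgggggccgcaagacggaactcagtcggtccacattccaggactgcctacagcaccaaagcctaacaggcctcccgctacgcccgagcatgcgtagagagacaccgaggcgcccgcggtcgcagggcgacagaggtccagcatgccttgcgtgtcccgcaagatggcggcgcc
Cars2: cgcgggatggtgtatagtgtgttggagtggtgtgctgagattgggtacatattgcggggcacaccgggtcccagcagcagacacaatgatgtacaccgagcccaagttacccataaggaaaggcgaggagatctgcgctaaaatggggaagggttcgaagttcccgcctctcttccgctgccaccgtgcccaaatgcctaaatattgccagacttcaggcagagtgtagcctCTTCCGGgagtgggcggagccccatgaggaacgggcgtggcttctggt
Sars2: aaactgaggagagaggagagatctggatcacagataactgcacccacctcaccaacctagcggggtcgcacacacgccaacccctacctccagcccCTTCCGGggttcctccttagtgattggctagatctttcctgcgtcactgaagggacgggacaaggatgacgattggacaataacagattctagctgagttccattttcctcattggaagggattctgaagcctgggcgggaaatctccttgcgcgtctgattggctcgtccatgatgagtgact

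Cars2 and Sars2 each have 1 such site and Yars2 has none in this stretch, and the log2 ratios of the 3 genes were -1.74, -1.67 and -1.51.

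Several synthetase genes stand head to head with a neighbour, with starts less than 1000 bases apart on opposite strands. Hars and Hars2 are such a pair, with 197 bases between their starts and transcripts that overlap by 198 bases. Hars was at 14.9 FPKM in control and 16.7 FPKM in the csMed1-/- library, whereas Hars2 was at 5.05 and 1.38 FPKM. Sars2 begins 172 bases from Mrps12, which encodes a protein of the mitochondrial ribosome and was at 122 and 135 FPKM (0.15), whereas Sars2 had a log2 ratio of -1.67. The ratios of these neighbours thus differed. Rars2 (-0.87) and its neighbour Orc3 (1.8 and 1.18 FPKM, -0.60) were both lower, as were Fars2 (-0.50) and Lyrm4 (7.73 and 6.18 FPKM, -0.32) and Kars (-0.58) and Terf2ip (2.74 and 1.51 FPKM, -0.86). Ears2 (-0.41) stood beside Ubfd1 (10.6 and 11.2 FPKM, 0.07). The cytosolic genes Wars and Yars differed in sign from their neighbours, with Wdr25 at 3.16 and 4.45 FPKM (0.49) beside Wars (-0.11) and S100pbp at 1.92 and 1.19 FPKM (-0.68) beside Yars (0.46).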

How the data were processed

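RNA from 5 hearts per genotype was pooled and enriched for poly(A) RNA, and 1 directional library per genotype was read as 50-base single reads. The authors deposited FPKM values, which they computed from alignments to mm10 with TopHat 2.0.8b, Cufflinks and cuffdiff 2.1.1. The submitters' processing notes also name STAR 2.4.0h, Bowtie2 and DESeq2 without a role. The library scaling is not given in the sources used here. FPKM summed to 780366 (control) and 716365 (csMed1-/-).

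From the steps between low values, csMed1-/- was sequenced 1.39 times as deeply as control if FPKM were scaled to mapped fragments alone, and absolute depth and precision of single values are unknown. Rows sharing a symbol were summed. Ratios used no pseudocount. No test was made, and lists are given by counts and medians. All 36 members are reported, with the 5 farthest from 0 in each compartment in full, and from other lists at most 4 genes past 2-fold with the largest ratios, plus Med1 and Atf4. A few genes that this rule names are not reported here. Other genes shown beside a member (subunits of the same enzyme, scaffold proteins, neighbours and genes listed at 0) were named after their values were seen. Members and lists were chosen with earlier results of these data known. Python 3.11.15, numpy 2.4.6 and pandas 2.3.3 were used, after a check on simulated data. The 16 alternatives covered pseudocounts, filters, scaling, thresholds and membership.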

Additional observations from a re-analysis of the deposited data

How the results depend on the processing

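Under 16 alternatives the median log2 ratio stayed between -1.04 and -0.68 for the mitochondrial synthetases, between 0.06 and 0.17 for the cytosolic synthetases, and between -1.12 and -0.85 for their difference. No synthetase changed direction, and 303 of 304 values of single synthetases stayed within 1.5-fold. Single values were read only under the pseudocount, filter, scaling and row settings. Part of this agreement was fixed in advance. Filters and the choice of row could not change a single value, since each synthetase had a single row. A common scaling factor or another threshold could not move the difference between the compartments. Counts past the threshold moved more. With a pseudocount of 1, 5 mitochondrial and 0 cytosolic genes were lower past 2-fold, the median pair difference was -0.75 and Wars2 was at -0.85, since a pseudocount shrinks low values. At 10 FPKM or more in either library, 4 of 10 mitochondrial and 0 of 15 cytosolic genes were lower past 2-fold, and 6 of 7 pairs had the lower mitochondrial ratio. Centring on the median of all genes left 1 cytosolic gene higher past 2-fold (Cars, 1.02) and put Pars2 just inside 2-fold at -0.97. At 1.5-fold 3 cytosolic genes were lower and 4 higher, and at 4-fold 0 cytosolic genes and 0 mitochondrial genes were lower and 0 mitochondrial genes higher. With Lars2 left out 0 mitochondrial genes were higher, and with the joint entry counted as Aars 1 cytosolic gene was higher past 2-fold. The last pair of settings, and the values of the other lists at 1 FPKM or more in both libraries, were chosen after seeing the data. No paired analysis was possible because each genotype has 1 pooled library, and no replicate could be left out for the same reason. Depth limits the genes near 1 FPKM most, above all Wars2, Nars2 and Rars2, for which no counting error could be given.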
